A study of Homo sapiens with 21 samples.

Results

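The lysyl oxidase family was followed in SUM149PT, a cell line from an inflammatory breast cancer recorded as lacking estrogen and progesterone receptors. Its 5 genes, LOX, LOXL1, LOXL2, LOXL3 and LOXL4, were found by symbol through their Ensembl identifiers among the 60617 genes of each table, and all 5 passed the filter on low counts. The 7 lines studied were the uncloned Parental line, clone E, the EM clones EM1, EM2 and EM3, and the M clones M1 and M2, with 3 libraries each and 21 in all. No line was treated, no allele or transgene is recorded, and each clone is a single clonal line, so a difference between clones may belong to that clone alone. Polyadenylated RNA was sequenced from one end. Separate cultures for the 3 libraries of a line are not stated in the labels, and p-values then reflect only how these libraries scatter, which may be technical.

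Lysyl oxidases are copper-dependent amine oxidases that are mostly secreted. They turn lysines and hydroxylysines of collagens and elastin into aldehydes, which then react to form the covalent cross-links that stiffen fibres outside the cell. LOX and LOXL1 are made with a propeptide that is cut off outside the cell, whereas LOXL2, LOXL3 and LOXL4 carry scavenger receptor cysteine-rich domains in front of the catalytic domain. In breast cancer LOX and LOXL2 are best known as genes that hypoxia can induce and that are tied to matrix stiffening and spread.

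Library totals were 24.6 to 48.1 in units of 1000000 expected counts. The keratin, EPCAM and CDH1 list summed to 5852 to 6498 TPM (the deposited level, scaled by length and library) in E, 1104 to 3054 TPM in the EM clones and Parental, and 328.0 to 759.4 TPM in M1 and M2. KRT8 was the largest part of the sum in E, at a mean of 4568 TPM. CDH1, the epithelial cadherin, was at most 0.12 TPM in M1 and M2. EPCAM did not peak in E, where it averaged 168.2 TPM. Its means were 351.7, 149.8 and 247.6 TPM in EM1, EM2 and EM3 and 361.3 TPM in Parental. In M1 and M2 EPCAM averaged 1.98 and 0.13 TPM. VIM, ZEB1 and CDH2 together ran from 21.8 to 23.7 TPM in E, from 75.6 to 187.8 TPM in Parental, from 494.0 to 1515 TPM in the EM clones and from 1519 to 3207 TPM in M1 and M2. ESR1 and PGR, the receptor genes, reached at most 2.26 and 0.05 TPM. The libraries also fell apart by mean effective length, the length over which RSEM takes reads to arise. It was 1806 to 1869 bases in 8 libraries, called the short set here (all 3 of E and replicate 3 of the other clones), and 1955 to 2063 bases in the 10 others of the clones, the long set. Parental lay at 1884 to 1949 bases. The labels do not name this split, and since E lies wholly in the short set, each contrast with E was also fitted with the set as a term (clone libraries only).

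In hg38, LOX (ENSG00000113083) lies on chromosome 5 at 122063195 to 122078360, minus strand, and LOXL1 (ENSG00000129038) on chromosome 15 at 73925989 to 73952137, plus strand. LOXL3 (ENSG00000115318) lies on chromosome 2 at 74532414 to 74555690 and LOXL4 (ENSG00000138131) on chromosome 10 at 98247690 to 98268250, both on the minus strand. LOXL2 (ENSG00000134013) is given by name only. The 250 bases before the RefSeq start (GRCh38.p14) are shown for LOX, LOXL1 and LOXL4, whose levels over the clones are described next: lowest in M2 for LOX, highest in M1 for LOXL1, and near 0 in both M clones for LOXL4. The windows are chr5:122078260-122078509 (minus strand), chr15:73926212-73926461 (plus strand) and chr10:98268195-98268444 (minus strand). They are printed 5′ to 3′ on the gene's strand, and capitals mark matches to a searched motif on either strand.
LOX: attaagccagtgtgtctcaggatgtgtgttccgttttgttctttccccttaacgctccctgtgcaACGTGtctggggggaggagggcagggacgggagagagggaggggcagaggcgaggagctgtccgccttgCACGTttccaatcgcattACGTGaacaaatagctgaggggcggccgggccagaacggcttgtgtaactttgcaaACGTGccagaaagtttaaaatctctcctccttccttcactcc
LOXL1: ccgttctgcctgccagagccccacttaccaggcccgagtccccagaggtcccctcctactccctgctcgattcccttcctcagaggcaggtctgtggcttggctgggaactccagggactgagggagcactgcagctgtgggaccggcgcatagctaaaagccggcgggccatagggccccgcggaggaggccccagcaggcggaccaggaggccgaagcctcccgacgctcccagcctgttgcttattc
LOXL4: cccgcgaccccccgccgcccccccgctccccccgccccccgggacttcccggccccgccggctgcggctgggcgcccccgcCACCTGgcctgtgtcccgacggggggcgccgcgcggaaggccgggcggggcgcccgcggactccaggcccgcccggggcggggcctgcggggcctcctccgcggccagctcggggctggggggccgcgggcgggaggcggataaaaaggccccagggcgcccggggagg
The searched motifs were the E-box CAGGTG, to which ZEB and SNAI factors can bind, the hypoxia response cores ACGTG and GCGTG, the AP-1 site TGANTCA and the TATA box TATAAA. The LOX window held ACGTG 4 times, at -185, -116 (on the other strand), -98 and -42 from the start, and none of the other motifs. ACGTG was present, in any number, in 18.5% of 34943 windows of the same length, and the share of windows with 4 was not counted. The LOXL4 window held a single CAGGTG match, read as CACCTG at -169, against 17.5% of all windows. The LOXL1 window held none of the 5 motifs. GCGTG was present in 32.2% of all windows, the AP-1 site in 6.6% and the TATA box in 10.8%. The LOXL4 window was 86.4% G and C, the LOXL1 window 66.8% and the LOX window 55.2%, with a median of 58.0% over all windows. These matches describe the letters only, since no binding was measured.

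LOX was highest in M1 and lowest in M2, and the other lines lay close together. Levels here are counts scaled to a library of 1000000 after TMM normalization (CPM), given in the order of replicates 1 to 3. LOX, the founding member of the family, stood at 27.9, 38.4 and 36.3 CPM in E and at 17.3, 37.3 and 31.9 CPM in Parental. In the EM clones it stood at 33.8, 39.6 and 40.2 CPM (EM1), 32.9, 59.4 and 47.7 CPM (EM2) and 33.0, 36.2 and 40.2 CPM (EM3), overlapping E throughout. M1 gave 93.2, 84.5 and 45.5 CPM, all above E, EM1, EM3 and Parental, while its replicate 3 fell inside the range of EM2. M2 gave 29.4, 9.85 and 2.65 CPM, an 11.1-fold range within the line, and its first library lay inside the range of E.

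Of the 15 clone pairs, 5 were called for LOX, each with M2 lower. A call is an adjusted p under 0.05 in edgeR's quasi-likelihood test, with Benjamini-Hochberg (BH) adjustment over 18632 genes in each pair, and the pairs called 0.37 to 51.3% of all genes. The 5 became 1 without M2 replicate 2 and 3 without EM1 replicate 2 or 3 or any EM3 library. LOX in M2 was lower than in M1 by a log2 fold change of -2.41 ± 0.54 (SE, adjusted p = 0.00149 by edgeR). This call was also made in each of the 21 fits that left out 1 library, with a log2 fold change of -3.58 without M2 replicate 1. Against E the fall in M2 was -1.29 ± 0.53 (log2, adjusted p = 0.0475 by edgeR), near the threshold. That call was lost when any 1 of 17 libraries was left out (all but EM2 replicate 1, M1 replicate 3, M2 replicate 1 and Parental replicate 1), with an adjusted p of up to 0.147, and the value was -0.80 without M2 replicate 3 and -2.47 without M2 replicate 1. It was also lost with the compared lines only (0.191). In M1 the 3 libraries lay above those of E, but the difference of 1.12 ± 0.52 was not called (log2, adjusted p = 0.101 by edgeR). It was called without M2 replicate 1 (0.0299) or M2 replicate 3 (0.02), without a low-count filter (0.00101) and with the compared lines only (0.013). With the set term the difference shrank to 0.74 (log2, adjusted p = 0.344 by edgeR). M1 replicate 3, the short-set library, was the lowest of its line. The EM clones differed from E by 0.09 to 0.45 on the log2 scale, and with the set term EM1 and EM3 had the opposite sign (-0.15 and -0.20). No pair of neighbours in the order M1, EM2, EM1, EM3, E, Parental, M2 was called for LOX, the lowest adjusted p being 0.112 (Parental and M2, edgeR).

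LOXL1 was high in M1 and within a narrow band elsewhere. LOXL1, best known for its part in elastic fibres, stood at 19.9, 20.5 and 19.8 CPM in E, and at 24.6, 22.7 and 19.6 CPM in Parental. In the EM clones it stood at 23.1, 32.1 and 26.6 CPM (EM1), 45.00, 30.4 and 30.2 CPM (EM2) and 39.1, 31.4 and 29.7 CPM (EM3), every library above those of E. M1 gave 101.7, 113.3 and 115.0 CPM, more than the 18 other libraries, and M2 gave 48.8, 20.1 and 26.8 CPM. The rise in M1 over E was 2.46 ± 0.27 (log2, adjusted p = 1.17e-06 by edgeR) and that over EM2, the next line in order, was 1.64 ± 0.26 (0.000142). Of the 15 clone pairs 7 were called for LOXL1, all but EM2 and M2 against E involving M1. M1 was called against each of the 5 other clones and Parental, in every fit with 1 library left out. M1 and EM2 were the only neighbours called in the level order of any of the 5 genes.

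The smaller differences of LOXL1 from E were less secure. In EM2 LOXL1 was higher by 0.81 ± 0.26 (log2, adjusted p = 0.0401 by edgeR). This call was lost with the set term (adjusted p = 0.0938), without a low-count filter (0.0505), or when any library of E, replicate 1 or 2 of EM2 or replicate 2 of M1 was left out (up to 0.21). In M2 LOXL1 was higher by 0.67 ± 0.25 (adjusted p = 0.0344 by edgeR), although its replicate 2 lay inside the range of E. That call was lost with the set term (0.0985), when any E library was left out, and without M2 replicate 1, which left a log2 fold change of 0.23 (adjusted p = 0.404 by edgeR). It was lost as well without a low-count filter (0.064), with the compared lines only (0.137) and by limma-voom (0.0626). EM3 missed the threshold at 0.73 ± 0.25 (adjusted p = 0.0538 by edgeR) and was called without M2 replicate 1, 2 or 3 (lowest 0.0136). It was also called with a mean CPM of at least 1 (0.046), with the compared lines only (0.00729), by DESeq2's Wald test (0.0434) and in both TPM tests (0.0241 and 0.0232). The antisense gene LOXL1-AS1, which overlaps LOXL1 on the other strand, had line means of 17.7 to 26.7 CPM and stood at 20.01 ± 0.71 CPM (SD, n = 3) in M1. SRFBP1, a protein-coding gene that overlaps LOX on the other strand, averaged 12.1 CPM in E, 25.3 CPM in M1 and 38.7 CPM in M2. The strand setting of the counting is not given in the sources used here, so reads of the overlapping genes cannot be told apart with certainty.

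**Figure D1:**
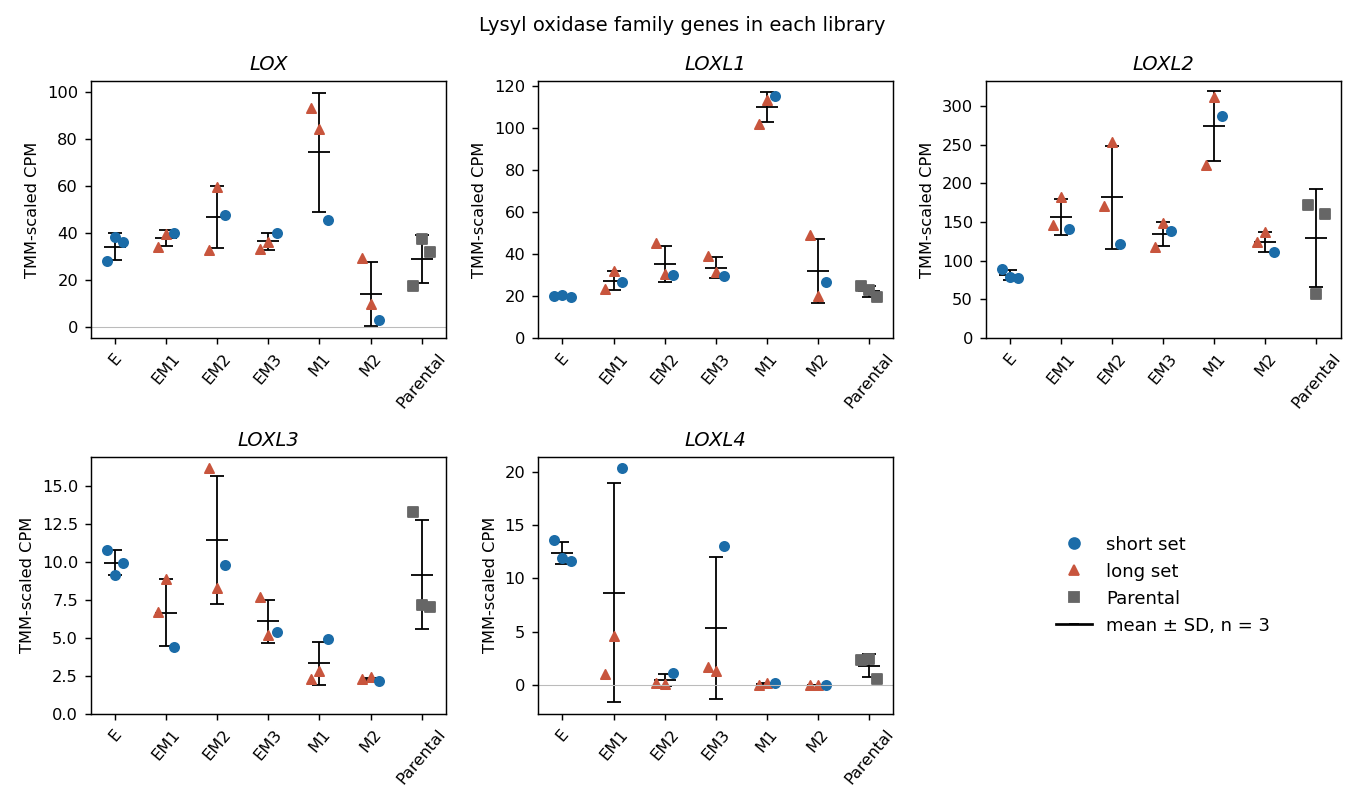
Level of each family gene in the 21 libraries, in TMM-scaled CPM on linear axes, by line; circles are short-set, triangles long-set and squares Parental libraries, and the bar is the mean ± SD of 3. LOXL1 in M1 sits at 101.7 to 115.0 CPM above the 18 other libraries, and LOXL4 in EM1 and EM3 is high only in replicate 3.

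LOXL2, known for cross-linking basement membrane collagen, was highest in M1 and lowest on average in E. E gave 88.8, 79.1 and 77.2 CPM, and Parental 172.3, 56.6 and 160.0 CPM, its second library below all others of the study. The EM clones gave 146.3, 182.7 and 140.8 CPM (EM1), 171.0, 253.8 and 121.5 CPM (EM2) and 117.3, 148.8 and 138.1 CPM (EM3). M1 gave 224.1, 311.2 and 287.4 CPM, and M2 124.1, 136.6 and 110.9 CPM. Every library of the 5 other clones lay above the highest of E.

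Of the 15 clone pairs 5 were called for LOXL2, 3 of them against E. The rise over E was 1.75 ± 0.32 in M1 (log2, adjusted p = 0.000305 by edgeR), and this call was made in all 21 fits with 1 library left out. M2 was lower than M1 by 1.15 on the log2 scale, as a log2 fold change of -1.15 ± 0.31 (adjusted p = 0.00635 by edgeR), again in all 21 fits. In EM2 LOXL2 was higher than in E by 1.16 ± 0.31 (adjusted p = 0.0177 by edgeR), lost without E replicate 2 or 3 or EM2 replicate 2 (up to 0.116). In EM1 the rise of 0.94 ± 0.31 (adjusted p = 0.0439 by edgeR) was lost in 12 of the 21 fits and by limma-voom (0.051). The libraries whose absence lost it were any of E or EM3, replicates 1 and 2 of EM1 and of M1, and replicate 1 of EM2 and of M2, with adjusted p up to 0.156. EM3 and M2 stood above E by 0.72 ± 0.31 and 0.60 ± 0.31 without a call (adjusted p = 0.118 and 0.115 by edgeR), and both were called without Parental replicate 2 (0.0321 and 0.0245) and with the compared lines only (0.00509 and 0.0199). The set term gave 8 called pairs for LOXL2 in place of 5. The count was 3 without E replicate 2 or 3, without EM3 replicate 1 or 3 or without M1 replicate 2, and 8 without Parental replicate 2.

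LOXL3 ran the other way, low in both M clones. LOXL3, a family member that also acts on collagen and elastin, stood at 10.8, 9.18 and 9.94 CPM in E and at 13.3, 7.16 and 7.05 CPM in Parental. The EM clones gave 6.69, 8.88 and 4.43 CPM (EM1), 16.2, 8.29 and 9.80 CPM (EM2) and 7.70, 5.16 and 5.41 CPM (EM3). M1 gave 2.27, 2.79 and 4.90 CPM and M2 2.28, 2.39 and 2.18 CPM, and every library of both lay below every library of E, EM2, EM3 and Parental. In EM1 only replicate 3 (4.43 CPM) came down into the range of M1. Every library of EM1 and EM3 also lay below every library of E, while EM2 overlapped E. The differences of EM1 and EM3 from E were not called (-0.58 ± 0.34 and -0.71 ± 0.34 log2, adjusted p = 0.245 and 0.164 by edgeR). EM3 was called with the compared lines only (0.0333). LOXL3 fell against E by -1.58 ± 0.35 in M1 and by -2.13 ± 0.36 in M2 (log2, adjusted p = 0.00169 and 7.65e-05 by edgeR), and both calls were made in all 21 fits with 1 library left out. Of the 15 clone pairs 7 were called for LOXL3, all with an M clone lower. The call of M1 against EM1 (adjusted p = 0.0408 by edgeR) was lost in 10 of the 21 fits (up to 0.205): without any library of E, replicate 1 or 2 of M1 or EM1, replicate 2 or 3 of EM3, or replicate 3 of EM2. M2 and M1 did not differ by the test (-0.54 ± 0.35, adjusted p = 0.232 by edgeR). HTRA2 and DOK1, protein-coding genes that overlap LOXL3 on the other strand, averaged 28.2 and 2.86 CPM in E, 33.3 and 6.05 CPM in M1 and 33.1 and 3.77 CPM in M2, and neither mean was lower in M1 or M2 than in E.

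LOXL4 had the widest range, from 541 or more counts in each E library to a single count over the 3 libraries of M2. LOXL4, the member nearest in structure to LOXL2 and LOXL3, stood at 13.6, 11.9 and 11.6 CPM in E, from 584, 556 and 541 counts. EM1 gave 1.014, 4.61 and 20.3 CPM, EM2 0.16, 0.11 and 1.09 CPM and EM3 1.63, 1.303 and 13.0 CPM. M1 gave 1, 7 and 6 counts, or 0.026 to 0.16 CPM, M2 0, 0 and 1 count, and Parental 2.32, 2.46 and 0.52 CPM. All 9 libraries of EM2, M1 and M2 lay more than 10 CPM below the lowest of E. Summed over libraries, LOXL4 in E was 1349 times that in M2 per count sequenced, with an exact 95% interval of 241.7 to 53300 that covers counting error only. The same ratio was 107.5 (63.9 to 197.1) against M1 and 26.9 (20.6 to 35.9) against EM2. The falls against E in EM2, M1 and M2 were called (adjusted p = 0.00789, 0.00047 and 7.09e-05 by edgeR), also in all 21 fits with 1 library left out. The fitted value in EM2 was -4.75 ± 1.12 (log2), -6.46 without EM2 replicate 3, and -3.60 with the set term. Of the 15 clone pairs 9 were called for LOXL4, and in each the lower line was EM2, M1 or M2.

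The level of LOXL4 in EM1 and EM3 moved with the library set. In both clones replicate 3, the short-set library, reached or exceeded the 11.6 to 13.6 CPM of E (20.3 CPM in EM1 and 13.0 CPM in EM3), whereas the 4 long-set libraries stood at 1.014 to 4.61 CPM. The 20.05-fold range within EM1 was larger than the difference of its mean from E. Neither clone differed from E by the test (-0.52 ± 0.94 and -1.22 ± 0.95 log2, adjusted p = 0.734 and 0.403 by edgeR), though EM3 was called without a low-count filter (0.0304). With the set term the values were 0.63 and -0.17 (adjusted p = 0.424 and 0.865 by edgeR), so the sign for EM1 turned. In EM2 the short-set library was also the highest of its line, at 1.09 CPM, but it lay far below the lowest of E, at 11.6 CPM. EM2 was lower than EM1 by -4.24 ± 1.10 (log2, adjusted p = 0.0213 by edgeR), a call lost without EM1 replicate 3 (-2.56, 0.134) and without EM2 replicate 1 or 2, and with a value of -5.94 without EM2 replicate 3. What sets the 2 kinds of library apart was not tested.

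**Figure D2:**
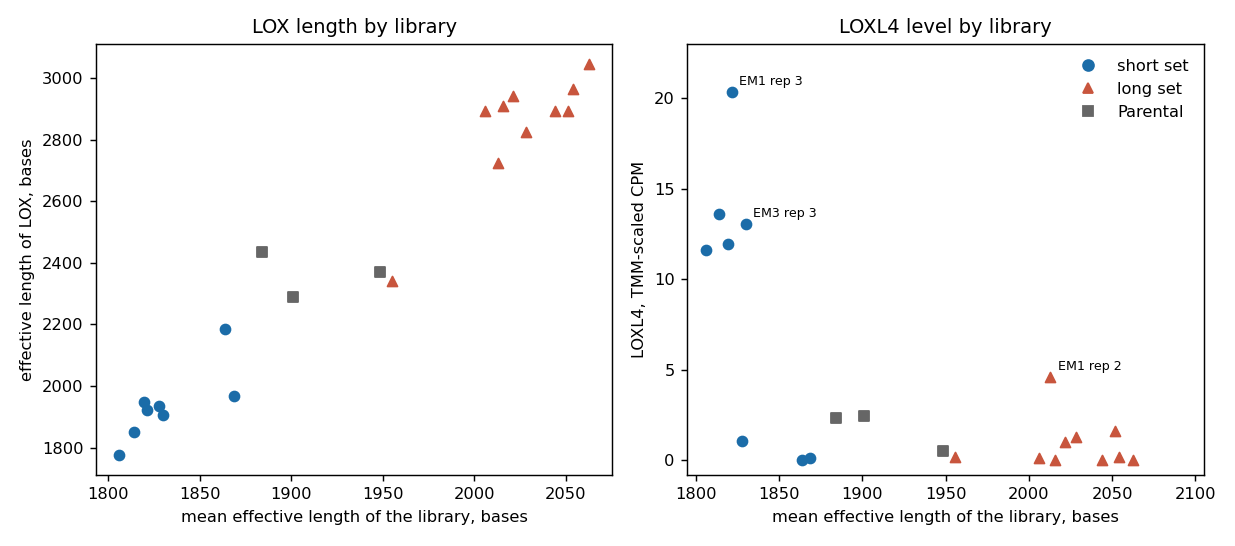
Effective length of LOX in bases (left) and LOXL4 in TMM-scaled CPM (right) against the mean effective length of each of the 21 libraries, in bases; circles are short-set, triangles long-set and squares Parental libraries. LOX was 1776 to 2187 bases long in the short set and 2341 to 3046 bases in the long set, and replicate 3 of EM1 and EM3 sits with E for LOXL4.

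Counted by contrast, 4 of the 5 genes were called in M1 against E, where 36.2% of all genes were, and 4 in M2 against E, where 51.3% were. EM1 had 1 (17.9% of all genes), EM2 had 3 (13.9%) and EM3 had none (17.3%). In EM3 2 genes had an unadjusted p under 0.05, DESeq2 called 1 and limma-voom none. Between M2 and M1 3 were called (41.2%), with LOX, LOXL1 and LOXL2 all lower in M2. Among the EM clones the 1 call was LOXL4, lower in EM2 than in EM1 (8.14% of all genes), with none in EM3 against EM1 (0.37%; none at an unadjusted p under 0.05, none by DESeq2 or limma-voom). EM3 against EM2 had none either (6.74%; 2 at an unadjusted p under 0.05, 1 by DESeq2, none by limma-voom), though LOXL4 there had an adjusted p of 0.0566, and 0.0309 with the replicate number as a block (edgeR). Against EM1, EM2 and EM3, M1 had 3, 2 and 3 calls (25.5, 17.9 and 22.5% of all genes) and M2 had 3 in each (45.8, 45.3 and 45.1%). The M2 calls were LOX, LOXL3 and LOXL4, all lower in M2. LOX was no longer called without M2 replicate 2 against any EM clone, nor, against EM1 and EM3, without M2 replicate 3, EM1 replicates 2 and 3 (EM1) or any EM3 library (EM3). LOXL4 in M2 against EM2 was lost without EM2 replicate 3 or any M2 library. Over all 75 tests between clones 33 were called, in pairs that called 0.37 to 51.3% of all genes. The share of all genes over these pairs together was not computed. This count and the counts of called pairs per gene are therefore no result about the family. Where a contrast called 36.2 or 51.3% of all genes, 4 calls of 5 are no result about the family.

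**Figure D3:**
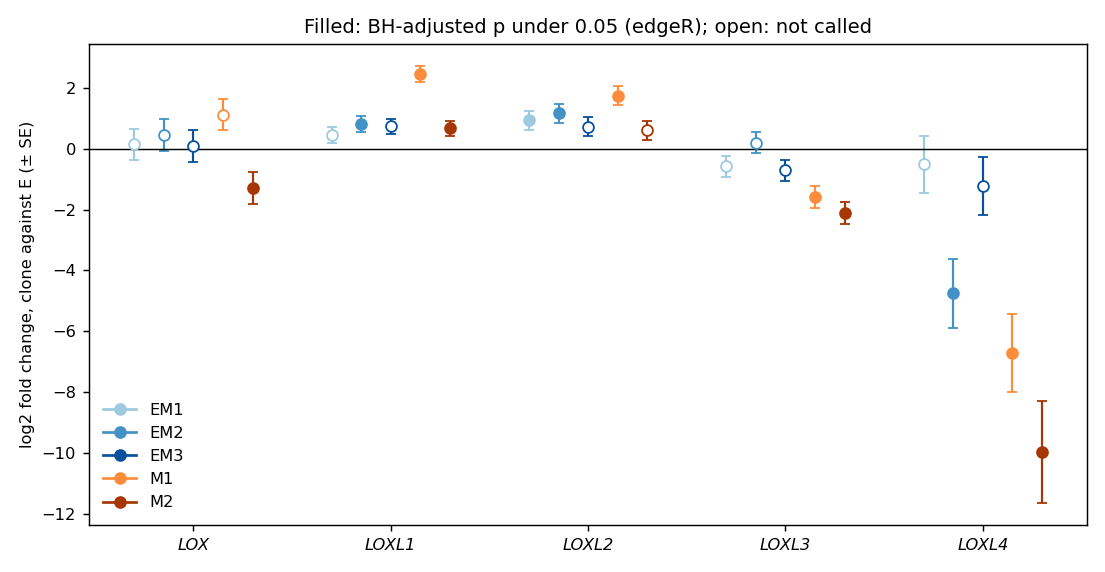
Fitted log2 fold change of each gene in EM1, EM2, EM3, M1 and M2 against E (± SE, n = 3 libraries a line); filled points are called at an adjusted p under 0.05 (edgeR, BH). LOXL1 in M1 (2.46) and LOXL2 in M1 (1.75) rise while LOXL3 and LOXL4 lie below 0 in both M clones; the fitted LOXL4 value in M2 rests on 1 count and depends on the prior count.

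Against Parental, 6 of 30 tests were called, all in the M clones. M1 had LOXL1 and LOXL2 higher and LOXL3 and LOXL4 lower (4 of 5, against 27.1% of all genes), and M2 had LOXL3 and LOXL4 lower (2 of 5, 46% of all genes). LOXL1 in M1 exceeded Parental by 2.30 ± 0.27 (log2, adjusted p = 2.89e-06 by edgeR). LOXL2 in M1 exceeded it by 1.08 ± 0.31 (adjusted p = 0.0144 by edgeR), lost without M1 replicate 2 (0.0539). LOXL4 in M1 was lower than Parental (adjusted p = 0.0207 by edgeR), lost without any M1 library or Parental replicate 1 or 2 (up to 0.0783). LOX in M1 lay above Parental in every library without a call (1.37 ± 0.525 log2, adjusted p = 0.0616 by edgeR). It was called without M1 replicate 3 or M2 replicate 1 or 3 (lowest 0.00795), and DESeq2 called all 5 genes in M1. Other calls appeared with 1 library left out: LOX in M2 (M2 replicate 1), LOXL1 in M2 (M2 replicate 2) and LOXL2 in E (Parental replicate 2). E, EM1, EM2 and EM3 had no call (10.9, 2.01, 5.5 and 3.7% of all genes), with 2, 1, 1 and 1 genes at an unadjusted p under 0.05, none by DESeq2, and 1 by limma-voom in E only. LOXL4 in E, at 12.4 ± 1.05 CPM, lay above Parental, at 1.77 ± 1.08 CPM (SD, n = 3), with no overlap of libraries but without a call (adjusted p = 0.081 by edgeR). It was called without EM1 replicate 3 or EM3 replicate 3 (lowest 0.0478).

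Which member led the family depended on the length used. In the deposited TPM, LOXL1 was the largest in 18 of 21 libraries and LOXL2 in the other 3. Its share of the family's TPM was 43.6 ± 1.18% in E and 65.5 ± 2.74% in M1 (SD, n = 3). The effective length behind LOXL1 was 372 to 548 bases, however, while its coding transcript is 2351 bases in GENCODE 29. Counted per kilobase of each gene's longest coding transcript, LOXL2 led in all 21 libraries, with 51.7 ± 2.58% of the family in E and 55.1 ± 4.10% in M1, and LOXL1 held 19.2 ± 0.59% and 33.6 ± 1.89%. LOXL3 and LOXL4 held 6.40 ± 0.44% and 7.62 ± 0.45% in E and 0.68 ± 0.28% and 0.021 ± 0.013% in M1 on the per-kilobase scale. Summed over the family, the per-kilobase level was 44.5 ± 1.23 in E, 139.6 ± 13.98 in M1 and 51.9 ± 9.37 in M2 (CPM per kilobase, SD, n = 3).

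**Figure D4:**
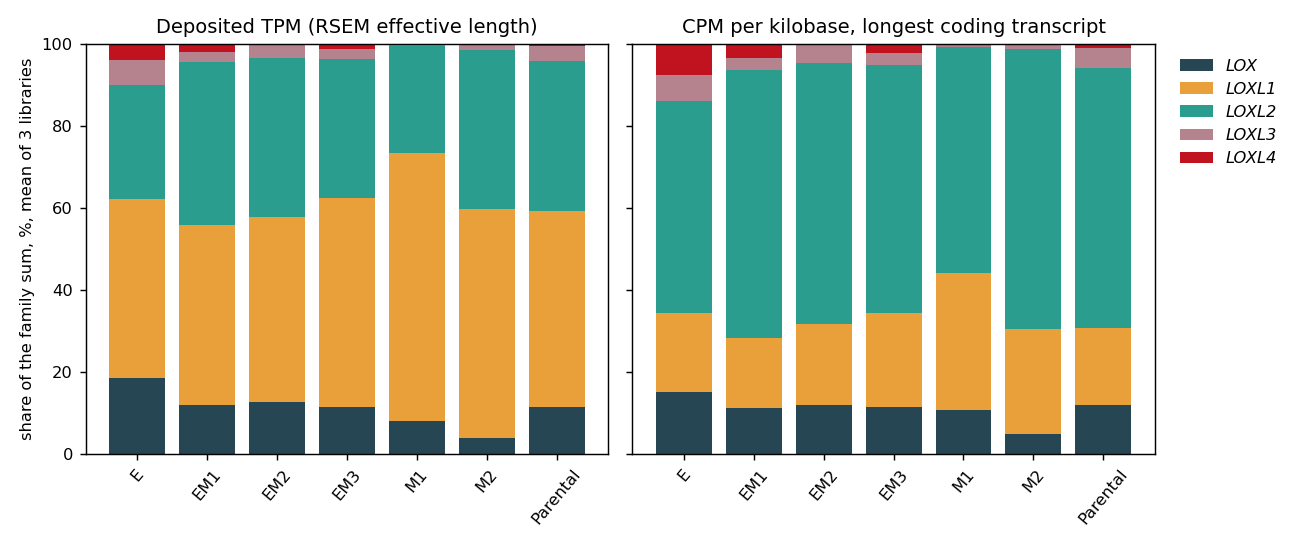
Share of the family sum held by each gene in each line, in percent (mean of 3 libraries), from the deposited TPM (left) and from CPM per kilobase of the longest coding transcript (right). LOXL1 holds 65.5% of TPM in M1 and 33.6% per kilobase, where LOXL2 holds the largest share in every line.

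Across the 7 line means on the log2(TPM + 1) scale, LOXL1 and LOXL2 moved together (Pearson r = 0.91, n = 7 lines), and LOXL2 and LOXL4 moved apart (r = -0.625). These values describe 7 points that share their libraries. LOX followed the others loosely, at r = 0.53 with LOXL1, 0.51 with LOXL2, 0.30 with LOXL3 and 0.14 with LOXL4. Among 7582 protein-coding genes with a range of at least 1 on that scale, the closest to LOX were SERINC2 (r = 0.997), FLNA, the actin cross-linker filamin A (0.994), and BMP2, a secreted growth factor (0.989). BMP2 averaged 10.9 TPM in E, 54.6 TPM in M1 and 0.19 TPM in M2. The closest to LOXL1 were TRAM2 (0.993), L3HYPDH (0.991) and VEGFA (0.981), and VEGFA averaged 28.5 TPM in E and 264.1 TPM in M1. ANO6, RCN1 and ANXA5 were closest to LOXL2 (0.988, 0.986 and 0.986). STYK1, TAF1A and VWA7 were closest to LOXL3 (0.989, 0.987 and 0.985), and PELI1 and LAMA2 were among the closest to LOXL4 (0.983 and 0.971). No test was made of these values.

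Transcripts on a list of collagens and other fibre proteins were mostly higher in M1. The list of 25 genes held fibrillar collagens and elastic fibre proteins, and also FN1 (fibronectin) and POSTN (periostin), and 20 were tested. Against E 15 were higher and 3 lower in M1, with a median log2 fold change of 3.09 against 0.03 over all genes. Of all genes, 18.1% were called higher and 18.1% lower. COL1A1, a chain of type I collagen, stood at 659.3 ± 121.0 TPM in M1 and 6.17 ± 0.17 TPM in E (log2 fold change 6.57 ± 0.74, adjusted p = 2.02e-06 by edgeR). COL5A1, a chain of type V collagen, stood at 58.7 ± 24.8 and 1.27 ± 0.12 TPM (5.57 ± 0.60). COL3A1, COL1A2, COL11A2 and COL5A3 also rose, by 8.82, 7.63, 4.98 and 4.85 on the log2 scale. Their means in M1 were 12.05, 3.72, 3.72 and 62.9 TPM. COL3A1 and COL1A2 rested on 16 and 7 counts in E. In M2 the list split, with 6 higher and 8 lower (24.6 and 26.8% of all genes) and a median of -0.08. FBLN1 and FBLN5, elastic fibre proteins, rose in M2 by 6.58 ± 0.34 and 4.91 ± 0.50 (log2, adjusted p = 2.06e-11 and 2.03e-07 by edgeR). In the same clone FBLN2, MFAP2 and COL5A3 fell by 5.29, 4.91 and 4.19 on the log2 scale. FBLN2 had 9 counts in M2, and FBN2 had 1 count there against 565 in E. Of 6 fibroblast markers, 2 reached 1 TPM in M1, and their sum ran from 1755 to 2445 TPM there against 40.7 to 51.6 TPM in E and 21.1 to 25.1 TPM in M2. Nearly all of it was DCN (decorin, 2001 TPM in M1), while LUM, PI16 and THY1 averaged 0.24, 0.01 and 0.21 TPM. PDGFRA averaged 0.06 TPM in E, 0.90 TPM in M1 and 8.78 TPM in M2, and PDGFRB 0.02, 0.60 and 3.30 TPM, so that in M2 both stood higher than in E while DCN stood lower (11.3 against 46.0 TPM). Their part in the collagen and elastic fibre counts was not tested. Blood and endothelial markers summed to 0.13 to 2.07 TPM over all lines.

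The EM clones were divided on the same list. EM2 had 7 higher and 3 lower (6.95% of all genes in each direction), and the 7 became 3 without any E library or without EM2 replicate 1 or 2. COL27A1, a fibrillar collagen, rose in EM2 by 3.03 ± 0.28 (log2, adjusted p = 1.29e-06 by edgeR). EM1 had 1 higher and 7 lower (9.84 and 8.09% of all genes), and COL5A1, FBLN2 and FBLN1 had log2 fold changes of -6.41, -4.63 and -4.48. These 3 rested on 12, 13 and 12 counts in EM1. EM3 had 3 higher and 5 lower (9.36 and 7.96% of all genes). FBN1, fibrillin, rose in EM3 by 2.58 ± 0.49 (log2, adjusted p = 0.00123 by edgeR), or 1.87 without EM3 replicate 3, and FBLN5 and COL5A1 fell by 3.16 and 2.61.

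Enzymes that modify and mature collagen were tested for 25 of 26 genes. In M1 12 were higher and 1 lower than in E (18.1% of all genes in each direction), with a median log2 fold change of 0.56. The only one lower was P3H2, a prolyl 3-hydroxylase, at 0.95 ± 0.38 TPM against 33.6 ± 4.65 TPM (-5.64 ± 0.55, adjusted p = 3.25e-07 by edgeR). Leaving out M2 replicate 2 or 3 or Parental replicate 2 made that count 2. TGM2, a transglutaminase that also cross-links matrix proteins, rose by 3.60 ± 0.73 in M1 (adjusted p = 0.000859 by edgeR) and fell by -2.30 ± 0.70 in M2 (0.0102; -2.91 without M2 replicate 3). P4HA1 and P3H1, prolyl hydroxylases, and ADAMTS3, a procollagen protease, rose in M1 by 2.18, 1.78 and 2.61 on the log2 scale. PLOD2, the lysyl hydroxylase of collagen telopeptides, the substrates of lysyl oxidases, rose in M1 by 1.52 ± 0.48 (adjusted p = 0.0197 by edgeR) and fell in M2 by -3.03 ± 0.51 (7.71e-05). The rise in M1 was lost without E replicate 2 or 3 or M1 replicate 1 or 2 and was 0.59 with the set term. In M2 8 of the list were higher and 5 lower, near the 24.6 and 26.8% of all genes, the 8 becoming 5 without E replicate 1 or 3 and 13 with the set term. ADAMTS2 and PCOLCE, which act on procollagen ends, rose in M2 by 8.30 ± 0.62 and 3.56 ± 0.34, ADAMTS2 from 14 counts in E. EM1, EM2 and EM3 had 4, 3 and 4 lower (8.09, 6.95 and 7.96% of all genes), and EM2 had 2 higher (6.95%). With the set term 2, 6 and 4 were higher in EM1, EM2 and EM3. The 2 in EM2 became 0 or 1 without any E or EM2 library, and the 4 in EM3 became 2 when E replicate 2 or EM3 replicate 1 was left out. P3H2 and P4HA2 were lower than in E in all 3 EM clones, with log2 fold changes of -3.13 to -2.88 and -1.75 to -1.48.

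Lysyl oxidases need copper. Of 8 genes of copper handling tested, 2 were lower in M1 (18.1% of all genes), and 1 was higher and 2 lower in M2 (24.6 and 26.8% of all genes; 4 higher with the set term). COX17, a mitochondrial copper chaperone, fell by -1.10 ± 0.18 in M1 and -0.98 ± 0.18 in M2 (log2, adjusted p = 0.000137 and 0.000217 by edgeR). SLC31A2, a copper transporter, fell by -1.49 ± 0.45 and -2.16 ± 0.46 (adjusted p = 0.0147 and 0.000723 by edgeR), the latter -2.93 without M2 replicate 3. COMMD1 was the gene higher in M2 (0.65 ± 0.22, adjusted p = 0.0184 by edgeR), lost without E replicate 2 or M2 replicate 3. The count of 1 became 3 without M2 replicate 1. It became 2 without EM1 replicate 1 or 3, replicate 2 or 3 of EM2 or EM3, M1 replicate 1 or 2, or M2 replicate 2. EM1, EM2 and EM3 had 2, 2 and 3 lower (8.09, 6.95 and 7.96% of all genes). CCS and COMMD1 made up the count in EM1, COMMD1 and SLC31A1 in EM2, and CCS, COMMD1 and COX17 in EM3. Each of these counts rested on single libraries. In EM1 it became 0 without E replicate 2 or EM1 replicate 2 and 1 without E replicate 3 or EM1 replicate 1. In EM3 the count was 0 without E replicate 3 and 1 without replicate 1 of either line. In EM2 COMMD1 remained called in all 21 fits while SLC31A1 was lost in 12: without any E library, EM1 replicate 2, EM2 replicates 1 and 2, EM3 replicates 1 and 2, M1 replicates 1 and 2 or Parental replicates 2 and 3.

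Of 12 genes that hypoxia is known to induce, 6 were higher than in E in M1 (18.1% of all genes). PFKFB4 and ADM rose there by 3.98 ± 0.44 and 3.45 ± 0.52 (log2, adjusted p = 1.66e-06 and 5.16e-05 by edgeR), and VEGFA by 2.95 ± 0.54 (0.00031). With the set term 4 were higher in place of 6, KDM3A and BNIP3 losing their calls (adjusted p = 0.07 and 0.0986 by edgeR). In M2 3 were higher and 3 lower (24.6 and 26.8% of all genes), the 3 higher becoming 1 without M2 replicate 2. EGLN3, an oxygen-sensing prolyl hydroxylase, rose by 4.76 ± 0.73 in M2, while CA9, a carbonic anhydrase, fell by -4.12 ± 0.52 (adjusted p = 2.84e-05 and 2.88e-06 by edgeR), or -4.73 without M2 replicate 1. EM1, EM2 and EM3 had 2, 4 and 2 higher (9.84, 6.95 and 9.36% of all genes). The 4 in EM2 became 0 without E replicate 2 or 3 or EM2 replicate 2 and 1 without E replicate 1. ADM rose in EM3 by 2.04 ± 0.50 and PDK1, a kinase of pyruvate dehydrogenase, in EM1 by 1.06 ± 0.26 (adjusted p = 0.00796 and 0.00776 by edgeR), both in all 21 fits. The other gene of each was lost in several fits. For PDK1 in EM3 these left out E replicate 1, 2 or 3 or EM3 replicate 2. For KDM3A in EM1 they left out E replicate 1, 2 or 3, EM1 replicate 1 or 2, EM2 replicate 1, EM3 replicate 1, M1 replicate 2 or Parental replicate 2 or 3. All of these contrasts share the E libraries.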

How the data were processed

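The 21 deposited tables, 1 for each of 3 libraries of the 7 lines, gave each gene an expected count, a TPM and an effective length, per the file headers. Per the submitters' processing notes, bcl2fastq 2.20.0.422, cutadapt 2.4, STAR 2.7.2b and RSEM 1.3.2 were used with hg38, with the annotation release and strand setting not given in the sources used here. The expected counts the authors deposited are RSEM's share of reads per gene (7.4 to 8.6% of values were not whole), and the deposited TPM scales them by effective length and library. GENCODE 29 gave positions and gene types, a separate list of gene names gave the symbols, and RefSeq the start windows.

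After rounding, the counts went into edgeR 4.0.16 under R 4.3.3, with TMM scaling, a low-count filter by line and the robust quasi-likelihood F-test. All 21 libraries entered 1 fit with 1 mean per line (14 residual degrees of freedom, common biological coefficient of variation 0.34, normalization factors 0.92 to 1.13), and 18632 genes were adjusted by Benjamini-Hochberg in each of 21 contrasts. Library totals of 24.6 to 48.1 in units of 1000000 counts set the precision of low genes, above all LOXL4 in M1 and M2. In a simulation from the E and M1 libraries (16729 genes), the same kind of test was fitted to those simulated libraries alone. It called 41.8% of genes changed 2-fold, 91% of those changed 4-fold and 97% of those changed 8-fold, with 20 unchanged genes called. Changes were put only into genes above a floor of pooled mean counts. These shares therefore do not measure the fit of all 21 libraries or genes under that floor. Alternatives were other filters, DESeq2 1.42.0 (size factors and Wald test), limma 3.58.1 (voom, and trend on log2 TPM), fits of only the compared lines, a block for the replicate number, a term for the library set and each library left out in turn. The short and long sets alone, and counts per kilobase of the longest coding transcript, were added after seeing the data.

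Named list genes were called genes without overlap of libraries and with a mean CPM of at least 1, the 6 largest changes in M1 and M2 and the 3 largest in each EM clone, for each list. Genes like a member were the 3 with the highest Pearson r, of which 1 is not reported here. Members and lists were chosen with earlier results of these data known. Python 3.11.15, pandas 2.3.3, numpy 2.4.6, scipy 1.17.1 and matplotlib 3.10.9 were used. TLL2, COL2A1, COL11A1, COL24A1, MFAP4 and POSTN did not pass the filter.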

Additional observations from a re-analysis of the deposited data

How the results depend on the processing

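Between clones, the count of called pairs for LOX (5) was 8 without a low-count filter and 3 with the compared lines only. For LOXL2 (5) it was 8 with the set term, 11 in the short set alone and 8 with the compared lines only, and for LOXL3 (7) it was 11 in the short set alone. Calls against Parental (6) were 12 without a low-count filter, and calls in the pathway lists (129) were 245 in the short set alone, a fit whose spread comes from the 3 E libraries only. Leaving out each library in turn gave 1 to 6 pairs for LOX, 5 to 8 for LOXL1, 3 to 8 for LOXL2, 6 to 8 for LOXL3, 8 to 10 for LOXL4, 4 to 8 calls against Parental and 96 to 137 in the lists. LOX had 1 pair without M2 replicate 2 and 3 without EM1 replicate 2 or 3 or any EM3 library. LOXL2 had 3 without E replicate 2 or 3, EM3 replicate 1 or 3 or M1 replicate 2, and 8 without Parental replicate 2. Directions turned for LOX EM1 versus E (-0.15 with the set term, -0.005 to 0.235 with 1 library left out) and LOX EM3 versus E (-0.20, and -0.039 to 0.181). They also turned for LOXL3 in EM2 against E (-0.014 in the short set alone, -0.142 to 0.39 with 1 library left out), and for LOXL4 in EM1 against E (0.63 with the set term, 0.71 in the short set alone, -2.189 to 0.011 with 1 library left out) and in EM3 against E (0.066 in the short set alone). The turns with 1 library left out came without replicate 1 of E (LOX), EM2 (LOXL3) or EM1 (LOXL4). None of these was called in the fit of all libraries, and the cause was not tested. In the TPM tests LOXL4 had no value, because its mean TPM was under 1. The depth limits LOXL4 in M1 and M2, with 14 counts and 1 count.

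Libraries with the same replicate number showed no steady pairing. Over all lines, deviations of same-number libraries correlated above 0.1 in 37 of 63 cases (from -0.375 to 0.9, median 0.2). For 14 of 21 libraries the closest was one of the same number. Among EM1, EM2, EM3, M1 and M2, replicate 3, the short-set library, correlated at 0.357 to 0.9 in every pair. Every pair was above 0.1 in 4 contrasts (M1 against EM1, EM3 against EM2, M2 against EM2 and M2 against EM3), where the replicate block changed 1 family call, LOXL4 in EM3 against EM2 (adjusted p 0.0566, 0.0309 with the block, edgeR). With the replicate block LOX in M2 against E was -1.36 (adjusted p = 0.05, edgeR) and LOXL1 in EM3 against E was 0.72 (0.0345). LOXL4 in E against Parental, where the numbers do not pair the libraries, had an adjusted p of 0.081, and 0.0414 with the block (edgeR).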
